A study of Mus musculus with 2 samples.

Results

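The genes of miR-15, miR-16, miR-195 and miR-497 are 6 mouse microRNA genes, arranged as 3 pairs of neighbouring hairpins. Mir15a and Mir16-1 lie within Dleu2, a long noncoding RNA gene, Mir15b and Mir16-2 within Smc4, which encodes a subunit of the condensin complex, and Mir195a and Mir497 form the remaining pair. They were chosen by gene symbol, and all 6 were found among the 2202 microRNA genes of the tables by their Ensembl identifiers in GENCODE M21. The levels come from microRNA-seq of adrenal gland tissue, which secretes steroid hormones from its cortex and catecholamines from its medulla. There are 2 libraries in 1 group, biological replicates 2 and 1, of wild-type C57BL/6J mice of unknown age and developmental stage. A label calls the animals female and another states that sex was not collected. The labels number the libraries as biological replicates but give both the same donor identifier, and do not state whether they came from separate animals. Differences between the libraries may therefore be technical, and the p-values hold for these libraries alone. No treatment or other condition was compared.

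A microRNA gene is transcribed as a longer RNA with a hairpin, from which a mature product of either arm (5p or 3p) is cut and loaded into an Argonaute protein. The seed, bases 2 to 8 of the mature product, sets most of its target choice, so microRNAs that share a seed share many targets. The miR-15/16 family is known for holding down cyclins, other cell-cycle genes and the survival gene Bcl2. In humans the locus of miR-15a and miR-16-1 is often deleted in chronic lymphocytic leukaemia, and miR-195 and miR-497 have been reported as reduced in adrenocortical carcinoma. In mouse heart, miR-195 is known for its part in the postnatal exit of muscle cells from the cell cycle.

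The RefSeq table for GRCm38.p6 held mature products for all 6 genes, 12 entries with 11 distinct sequences. The 5p products are shown because they define the family. They are printed 5′ to 3′ with the seed in capitals, and every one carries the seed AGCAGCA.
miR-15a-5p: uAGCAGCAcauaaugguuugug
miR-15b-5p: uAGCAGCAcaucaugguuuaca
miR-16-5p: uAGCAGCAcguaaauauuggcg
miR-195a-5p: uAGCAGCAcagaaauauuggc
miR-497a-5p: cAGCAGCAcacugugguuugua
The 3p products had 6 different seeds, and none of them was AGCAGCA. Counted from 1 at the 5′ end over 21 bases, miR-16-5p and miR-195a-5p differ only by G10A and U11G, the miR-16-5p base being written first. miR-15a-5p and miR-15b-5p differ at 4 of 22 positions, A12C, G20A, U21C and G22A, with the miR-15a-5p base first. The least alike of the 5p products were miR-16-5p and miR-497a-5p, with 11 differences in 22 bases.

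The gene pairs differ in how far their counts stand for their mature products. The sequence of miR-16-5p is identical at Mir16-1 and Mir16-2. Among the transcripts of GENCODE M21 it was found in those 2 genes and in no other. Each of the other 10 mature sequences was found there in 1 gene on its own strand. The genome outside those transcripts was not searched, so further matches there remain unknown. The tables set reads with several alignments apart from the gene counts, and those rows held 36.0% of all reads in replicate 2 and 35.9% in replicate 1. How many of them came from miR-16-5p was not analysed here. The hairpins of both miR-16 genes are shown to mark the stretch that cannot be assigned, in capitals, which is miR-16-5p and the base after it, 23 bases in all.
Mir16-1: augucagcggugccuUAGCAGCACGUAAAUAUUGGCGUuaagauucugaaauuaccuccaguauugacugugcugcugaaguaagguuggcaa
Mir16-2: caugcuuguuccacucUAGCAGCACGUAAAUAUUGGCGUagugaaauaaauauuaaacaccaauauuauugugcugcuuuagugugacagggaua
A read that lies wholly in that stretch matches both hairpins. The counts of Mir16-1 and Mir16-2 therefore leave such reads out, and which reads compose them was not measured. The 3p products of these genes, set side by side from their 5′ ends, differ at 10 of 22 positions.

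In GRCm38 coordinates, Mir15a lies at chr14:61632027-61632110 and Mir16-1 at chr14:61631880-61631972, both on the minus strand. Mir15a is intronic in Dleu2, and Mir16-1 overlaps 1 annotated Dleu2 exon by 13 bases. Mir15b at chr3:69009772-69009835 and Mir16-2 at chr3:69009902-69009996 are both intronic in Smc4, on its strand. Mir497 at chr11:70234717-70234800 and Mir195a at chr11:70235042-70235135 lie on the plus strand, outside any annotated gene on that strand. The gap between the hairpins of a pair is 54 bases for Mir15a and Mir16-1, 66 for Mir15b and Mir16-2, and 241 for Mir497 and Mir195a. Mir497 lies wholly inside Mir497b, a microRNA gene annotated on the other strand at chr11:70234692-70234816.

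**Figure D1:**
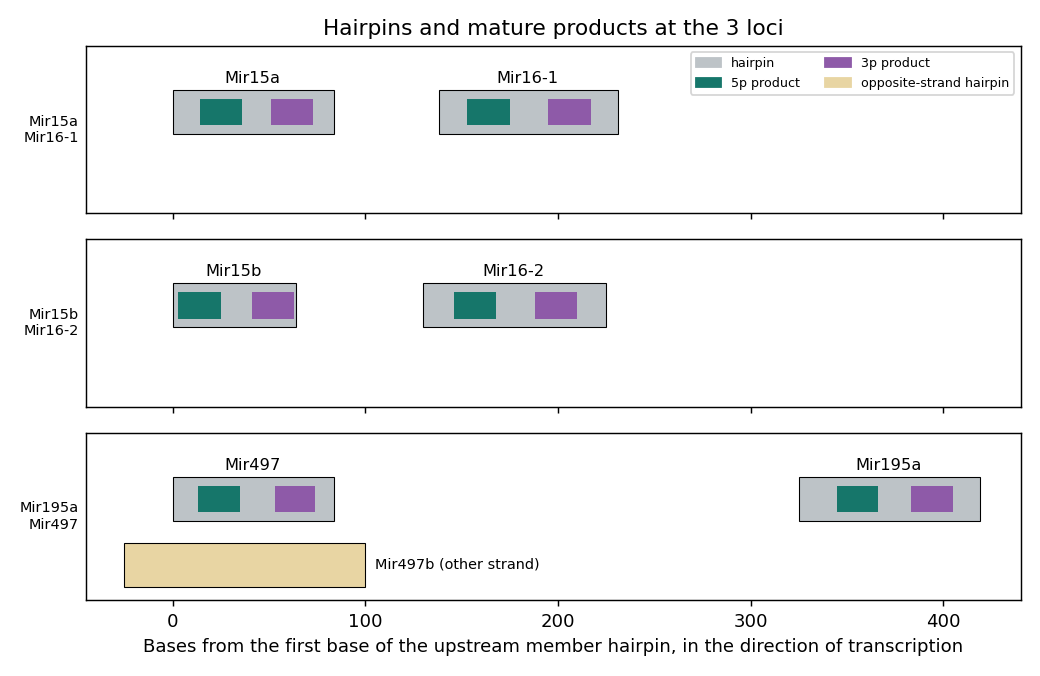
Map of the 3 loci to scale. The x axis gives bases from the first base of the upstream member hairpin in the direction of transcription; grey bars are member hairpins, green and purple bars their 5p and 3p products, and the yellow bar is Mir497b on the other strand. The gap between partners is 54, 66 and 241 bases, from top to bottom.

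Replicate 2 held 6570375 counts on the strand of a microRNA gene and replicate 1 held 9137907, so that a count of 0 allows up to 0.457 CPM (counts per 1000000 of that total) in replicate 2 and 0.328 CPM in replicate 1. Such limits and all intervals cover counting error only. The tables hold microRNA genes alone, so messenger RNA markers of adrenal cells were not measured. Lists of microRNAs known as markers of cell types, inside or outside the gland, were summed instead. The neuroendocrine list (Mir375 and the Mir7 genes, 4 of 4 with counts) summed to 51805 and 54062 CPM in replicates 2 and 1. Endothelial Mir126a had 54325 and 61677 CPM. The leukocyte list (6 of 6) summed to 3559 and 3237 CPM, the fibroblast and smooth muscle list (5 of 5) to 15027 and 18908 CPM, and the erythroid list (3 of 3) to 295 and 144 CPM. The kidney list (4 of 4) summed to 118 and 112 CPM, liver Mir122 had 71.5 and 128 CPM, and the striated muscle list (3 of 7) summed to 1.67 and 1.31 CPM, with Mir1a-1, Mir1a-2, Mir133a-1 and Mir133a-2 at 0. The members of a list did not always go the same way. Among the leukocyte genes, Mir142, Mir155 and Mir223 had lower CPM in replicate 2, and Mir150, Mir146 and Mir342 higher. Most of the fibroblast and smooth muscle sum was Mir143, lower in replicate 2 with Mir214, while Mir145a and Mir199a-2 had higher CPM. Mir199a-1, with 1 count in replicate 2 and 2 counts in replicate 1, had too few counts to give a direction. The part of these cells in the results below was not tested.

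All 6 genes were well above the detection limit. Together they held 0.541% of the gene counts in replicate 2 (exact Clopper-Pearson 95% interval 0.536 to 0.547) and 0.686% in replicate 1 (0.681 to 0.691), a mean of 0.614% ± 0.102 (SD, n = 2). The 6 members ranked between 63 and 116 by level among the 2202 genes in replicate 2, and between 44 and 148 in replicate 1.

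At the Dleu2 locus the partners stood in opposite orders in the libraries. Mir15a had 5980 counts (910 CPM) in replicate 2, against 24534 counts (2685 CPM) in replicate 1. Mir16-1 had 7811 counts (1189 CPM) in replicate 2, against 5768 counts (631 CPM) in replicate 1. In CPM and per hairpin base, Mir15a was the lower member of the pair in replicate 2 and the higher in replicate 1.

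At the Smc4 locus both genes were higher in replicate 2. Mir15b had 5668 counts (863 CPM) in replicate 2 and 5476 counts (599 CPM) in replicate 1. Mir16-2, the lowest of the 6 genes in both libraries, had 2484 counts (378 CPM) in replicate 2 and 1966 counts (215 CPM) in replicate 1. Both kept the same order within the pair.

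At the chromosome 11 locus Mir195a was the steadiest member and Mir497 was not. Mir195a had 10011 counts (1524 CPM) in replicate 2 and 13461 counts (1473 CPM) in replicate 1, a mean of 1498 CPM ± 35.8 (SD, n = 2). Mir497 had 3600 counts (548 CPM) in replicate 2 and 11477 counts (1256 CPM) in replicate 1. Mir195a was the higher of the pair in both libraries.

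**Figure D2:**
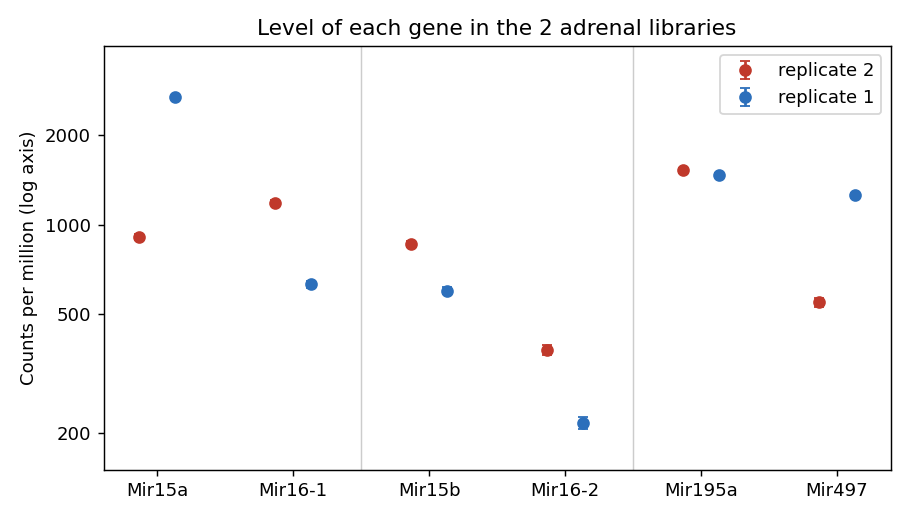
Level of each gene in CPM (log axis) in replicate 2 (red, left) and replicate 1 (blue, right), grouped by locus; bars are exact 95% counting intervals, mostly smaller than the points. Mir15a sits at 910 against 2685 CPM and Mir195a at 1524 against 1473 CPM.

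Since the hairpins differ in length from 64 to 95 bases, levels of different genes were compared as CPM per hairpin base. Mature products are of nearly equal length, so this scale can tilt the comparison, and the plain CPM order is given with it. Mir15a averaged 21.4 ± 14.9 CPM per base (SD, n = 2) and Mir195a 15.9 ± 0.380, a gap smaller than the spread of Mir15a. Mir15b followed at 11.4 ± 2.91, Mir497 at 10.7 ± 5.96 and Mir16-1 at 9.79 ± 4.24 CPM per base, and none of these neighbours in the order differed by more than the larger of their SDs. Mir16-2 was last at 3.12 ± 1.21 CPM per base, below Mir16-1 by more than either SD. The step from Mir195a to Mir15b also exceeded both SDs. In plain CPM, Mir16-1 (910 ± 394) and Mir15b (731 ± 186) changed places and the other genes kept theirs. The places of the miR-16 genes are those of counts without reads wholly in their shared stretch.

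The libraries were then compared gene by gene, replicate 2 over replicate 1, by an exact two-sided binomial test on counts scaled by TMM, with Benjamini-Hochberg adjustment over all 426 genes with at least 20 counts. This test compares those libraries and knows counting error only. All 6 members passed (adjusted p under 0.05), 3 higher in replicate 2 and 3 lower, where 56.1% of all tested genes passed, 25.8% higher and 30.3% lower in replicate 2. Of the 163 tested genes between 100 and 10000 mean CPM, members included, 64 passed as higher and 73 as lower in replicate 2. With so many genes passing, the size of a difference says more than the call. The 6 members had a median log2 ratio of 0.18 and a median absolute log2 ratio of 0.76, beside -0.03 and 0.29 over all 426 genes, and -0.03 and 0.23 over the 163 genes between 100 and 10000 mean CPM, the range in which all members lie.

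Mir15a was 3.17-fold lower in replicate 2 (log2 ratio -1.66, 95% counting interval -1.70 to -1.62), with an adjusted p too small for the computation to hold. Of the 162 other genes between 100 and 10000 mean CPM, 3 differed by as much in either direction. Mir497 was 2.46-fold lower in replicate 2 (log2 ratio -1.30, interval -1.35 to -1.25), likewise with a vanishing adjusted p, and 9 of those 162 genes differed by as much.

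Mir16-1 was 1.75-fold higher in replicate 2 (log2 ratio 0.81, interval 0.76 to 0.86, adjusted p = 5.2e-232), and 23 of the 162 genes differed by as much. Mir16-2 was 1.64-fold higher (log2 ratio 0.71, interval 0.62 to 0.80, adjusted p = 1.9e-59), a size reached by 27 of them. The intervals of the miR-16 genes overlapped. Mir15b was 1.34-fold higher in replicate 2 (log2 ratio 0.42, interval 0.37 to 0.48, adjusted p = 5.2e-53), a size reached by 46 of the 162. The erythroid markers are given here because miR-16 is abundant in red blood cells. The counts of Mir16-1 and Mir16-2 leave out reads that lie wholly in their shared stretch. These counts therefore do not give the level of the mature miR-16 product that the genes share. Mir451a had 1609 counts in replicate 2 and 1001 in replicate 1 (log2 ratio 1.06), and Mir486 had 164 and 121 counts (0.81). Mir144 had 163 and 193 counts (0.13) and was not called (adjusted p = 0.54, exact binomial test). Their part in these differences was not tested.

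Mir195a differed by 1.04-fold, lower in replicate 2 at a log2 ratio of -0.05 (interval -0.09 to -0.02, adjusted p = 0.0093), and 142 of the 162 genes differed by as much or more. TMM lowered every log2 ratio by 0.10 against scaling by total counts, and under that scaling Mir195a was higher in replicate 2, at 0.05. Its direction is therefore set by the scaling. The other 5 members kept their direction under each scaling tried.

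**Figure D3:**
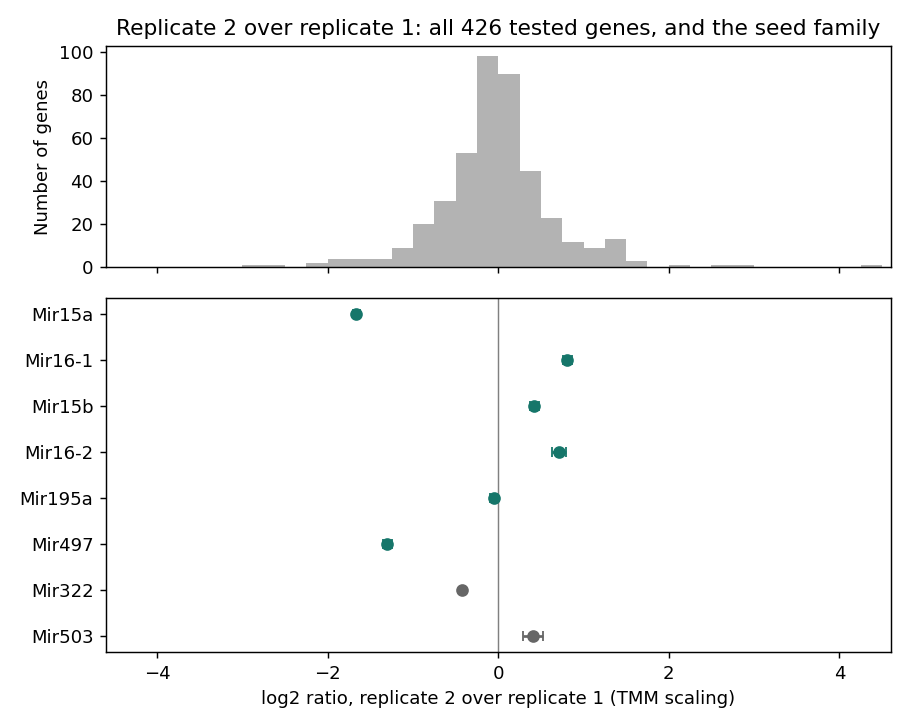
Top, number of genes by log2 ratio of replicate 2 over replicate 1 (TMM scaling) for all 426 tested genes, in bins of equal width; bottom, the 6 members (green) and the same-seed genes Mir322 and Mir503 (grey) with 95% counting intervals. Mir15a at -1.66 and Mir497 at -1.30 lie in the left tail, and Mir16-1 lies at 0.81 on the right.

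Within a library, the ratio of partners does not depend on sequencing depth or scaling. The counts of the miR-16 genes leave out reads that lie wholly in their shared stretch. Among the GENCODE M21 transcripts, the only sequences searched, miR-15a-5p and miR-15b-5p were each found in 1 gene. The ratios at those loci are therefore ratios of gene counts and not of mature products. Mir16-1 had 1.31 counts for each count of Mir15a in replicate 2 and 0.235 in replicate 1. Its share of the pair's counts was 56.6% in replicate 2, with an exact 95% interval of 55.8 to 57.5, against 19.0% in replicate 1, with one of 18.6 to 19.5. The log2 ratio of Mir16-1 over Mir15a was 0.39 in replicate 2 and -2.09 in replicate 1, a difference of 2.47 (exact 95% interval 2.41 to 2.54), and its sign turned. Per hairpin base these ratios were 0.24 and -2.24. The sum of both genes was 2099 CPM in replicate 2 and 3316 CPM in replicate 1.

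Mir497 had 0.360 counts for each count of Mir195a in replicate 2 and 0.853 in replicate 1, or 26.4% (interval 25.7 to 27.2) and 46.0% (45.4 to 46.6) of the pair's counts. The log2 ratio of Mir497 over Mir195a was -1.48 in replicate 2 and -0.23 in replicate 1, and the difference was -1.25 (interval -1.31 to -1.18). The pair's sum was 2072 CPM in replicate 2 and 2729 CPM in replicate 1. Of this pair, Mir497 was the gene whose level differed, with Mir195a at nearly the same level in both libraries.

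The Smc4 pair held its ratio best. Mir16-2 had 0.438 counts for each count of Mir15b in replicate 2 and 0.359 in replicate 1, or 30.5% (interval 29.5 to 31.5) and 26.4% (25.4 to 27.4) of the pair's counts. The log2 ratio was -1.19 in replicate 2 and -1.48 in replicate 1, a difference of 0.29 (interval 0.19 to 0.39). The pair's sum was 1241 CPM in replicate 2 and 814 CPM in replicate 1. At both loci with a miR-16 gene, its ratio to the miR-15 partner was higher in replicate 2, by 2.47 and 0.29 on the log2 scale. At the Dleu2 locus, Mir15a had a log2 library ratio of -1.66 and Mir16-1 one of 0.81. The 0.29 of the Smc4 pair lay below the median of 0.41 over 68 other neighbouring pairs, described below.

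**Figure D4:**
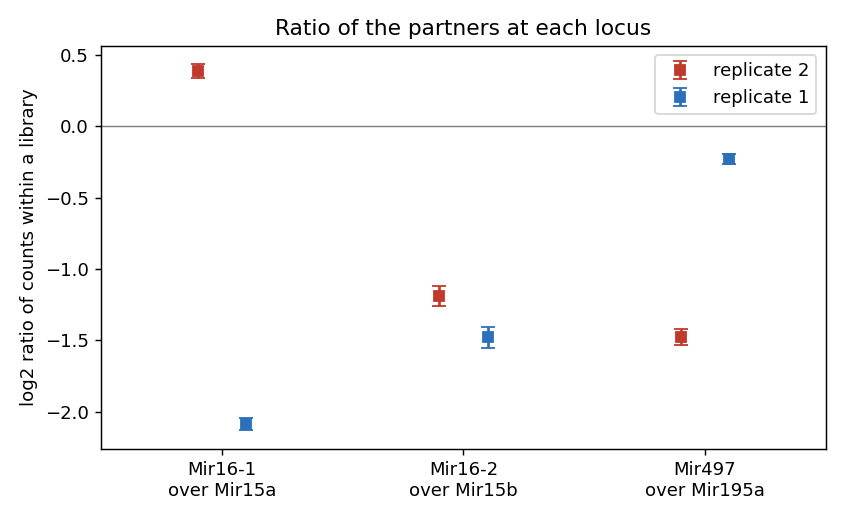
The log2 ratio of counts between the partners at each locus within replicate 2 (red, left) and replicate 1 (blue, right), with exact 95% counting intervals and a line at equal counts. Mir16-1 over Mir15a lies at 0.39 against -2.09, across the line, while the other ratios stay below it in both libraries.

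To see how often neighbouring microRNA genes part in this way, every other pair of adjacent tested genes on a strand within 1000 bases was taken, a choice made after the members' values were seen. The 68 other pairs differed in their log2 library ratios by a median of 0.41 and by at most 2.08, for Mir96 and Mir183. None of them differed by as much as Mir15a and Mir16-1, at 2.47. Reads wholly in the stretch shared by Mir16-1 and Mir16-2 are left out of those genes' counts. The differences of their pairs are therefore those of gene counts and not of mature products. How far the reads left out bear on the places of these pairs was not tested. Of the 68, 6 differed by as much as Mir195a and Mir497, at 1.25, and 40 by as much as Mir15b and Mir16-2, at 0.29. Partners called in opposite directions were found in 18 of the 68 pairs, so opposite movement alone was not particular to the Dleu2 locus. With both genes at 100 mean CPM or more there were 29 other pairs, with a largest difference of 1.78, and 1 of them differed by as much as Mir195a and Mir497.

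**Figure D5:**
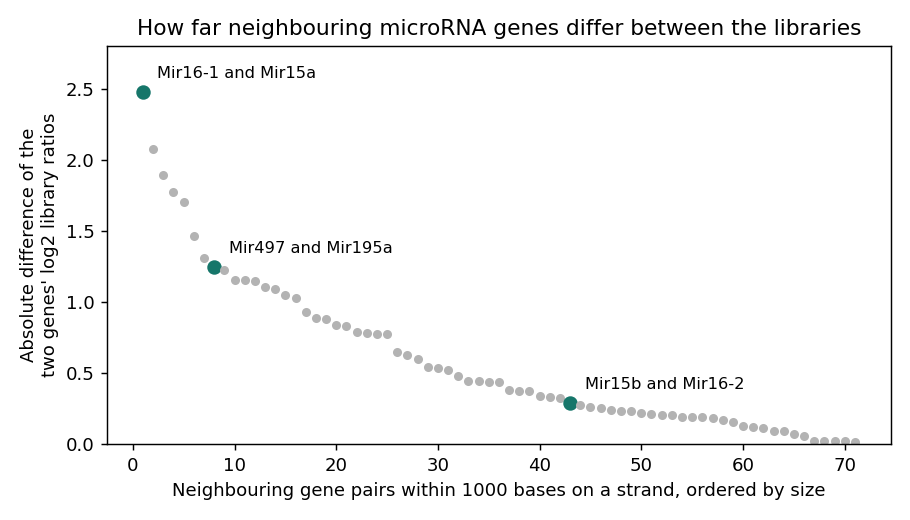
Each point is a pair of adjacent microRNA genes on a strand within 1000 bases, ordered by the absolute difference of the partners' log2 ratios of replicate 2 over replicate 1. Green points are the 3 member pairs, at 2.47, 1.25 and 0.29, and grey points are the 68 other pairs. In the pairs at 2.47 and 0.29, the miR-16 gene's counts leave out reads wholly in the stretch shared by Mir16-1 and Mir16-2.

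Outside the members, 6 genes in the tables have a mature product with AGCAGC at bases 2 to 7. Mir322, from the X-linked cluster whose human counterpart is miR-424, had 50011 counts (7612 CPM) in replicate 2 and 86670 counts (9485 CPM) in replicate 1. Mir503, its neighbour, has AGCAGCG at bases 2 to 8, and had 1155 counts (176 CPM) in replicate 2 and 1127 counts (123 CPM) in replicate 1. Of the 2 genes with enough counts to be tested, Mir322 was lower in replicate 2 (log2 ratio -0.42, interval -0.44 to -0.40) and Mir503 higher (0.41, interval 0.29 to 0.53). Both were called by the exact binomial test, where 56.1% of all tested genes were called. Of the 163 genes between 100 and 10000 mean CPM, where both lie, 64 were called higher and 73 lower in replicate 2. Their median was -0.01 and their median absolute log2 ratio 0.41, beside -0.03 and 0.29 over all tested genes. Mir195b had 0 counts in replicate 2 and 1 in replicate 1, and Mir6342, Mir6353 and Mir6419 had none in either. Per hairpin base, Mir322 averaged 90.0 ± 13.9 CPM (SD, n = 2) and Mir503 2.11 ± 0.522, beside 21.4 ± 14.9 for Mir15a, the member with the highest mean. In replicate 2 Mir15a stood at 10.8 CPM per base, below Mir195a at 16.2.

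The genes nearest in level over both libraries, by Euclidean distance in log2(CPM + 1), were Mir378a (distance 0.07) and Mir484 (0.09) for Mir195a, and Mir672 (0.06) and Mir598 (0.14) for Mir15b. For Mir16-1 they were Mir342 (0.28) and Mir1839 (0.40), and for Mir16-2 they were Mir574 (0.42) and Mir668 (0.46). For Mir15a they were Mir214 (0.44) and Mir615 (0.97), and for Mir497 they were Mir330 (0.75) and Mir181d (0.77). Mir214, at 1132 CPM in replicate 2 and 2163 CPM in replicate 1, had a log2 ratio of -1.04. The measure rests on 2 libraries and describes level only.

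The strand of a count matters at the chromosome 11 locus. Mir497 had 3600 and 11477 counts on its own strand in replicates 2 and 1 but 0 and 0 in the counts on either strand, where reads that overlap several genes are set apart as ambiguous. On its own strand Mir497b had 0 counts in replicate 2 and 1 in replicate 1. The other 5 members had the same count on either strand as on their own strand, and 0 on the opposite strand in both libraries.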

How the data were processed

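MicroRNA-seq libraries (size range below 30, with no unit given) were prepared from total adrenal RNA. Per the labels' protocols and the deposited description, reads were adapter-trimmed and raw read counts were made by the authors per gene on mm10 with GENCODE M21. Not given in the sources used here are the aligner and the counting tool. The deposited tables have 3 unnamed columns of counts, read from their totals as either strand, the strand of the gene and the opposite strand. The second was used. The 4 rows that name no gene (unmapped, several alignments, outside genes, ambiguous) held 54.6% of the reads in replicate 2 and 51.2% in replicate 1 and were left out of the totals. A count covers a whole hairpin, both arms together.

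All 2202 identifiers matched GENCODE M21. CPM values are per 1000000 gene counts. TMM factors came from edgeR 4.0.16 in R 4.3.3, and DESeq2 1.42.0 size factors were an alternative. Log2 ratios are replicate 2 over replicate 1 with 0.5 counts added. Tests used scipy 1.17.1 and were tried on simulated counts that held counting error only. Such counts cannot show how the test behaves where libraries differ by more than counting error. Genes named were the members, those with the AGCAGC seed that had any count, those overlapping a member on the other strand, and the 2 nearest in level to each member. Genes named outside that rule (Mir96, Mir183, the markers and the seed genes at 0) were chosen with values known. The members and lists were chosen with earlier results of these data known.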

Additional observations from a re-analysis of the deposited data

Results flagged for a closer look

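Mir497b, annotated opposite Mir497, had opposite-strand counts of 3600 in replicate 2 and 11477 in replicate 1, in a column that no comparison uses and above the 3 counts that a count of 0 allows. These equal the counts of Mir497 on its own strand in the same libraries, and Mir497 lies wholly within Mir497b. They are given as values only.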

How the results depend on the processing

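Of 29 alternative values for the members' log2 ratios, 27 kept their direction and their side of the threshold. The exceptions were both for Mir195a, which was 0.049 when scaled by total counts (adjusted p = 0.020) and -0.041 with DESeq2 size factors (adjusted p = 0.058, exact binomial test), and its adjusted p ranged from 0.0015 to 0.058 over the alternatives. Counted on either strand, Mir497 was at 0, so no ratio of Mir497 could be given there. Mir195a averaged 1649 CPM there with the same counts, since the totals of that column are smaller. Mir15a, Mir16-1, Mir15b and Mir16-2 also had higher CPM there, with the same counts. With a single library left, the mean log2 ratio of Mir16-1 over Mir15a, -0.85, ranged from -2.09 to 0.39. The median log2 ratio of the other seed family genes, -0.01, was 0.097 by total counts and -0.42 with no filter on low counts, where Mir195b, at 0 counts and 1 count, joins the 2 tested genes. The split of all calls, 110 higher and 129 lower in replicate 2, became 150 and 93 by total counts. In a window of 10000 bases, 0, 10 and 68 of 113 other neighbouring pairs differed by as much as the Mir15a, Mir195a and Mir15b pairs. That window and the minimum of 100 CPM were chosen after seeing the data. Scaling sets the direction of Mir195a. For the others the cause was not tested. No paired analysis was possible because there is 1 group. With 2 libraries of 1 group, no spread between animals can be estimated.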
